A study of Homo sapiens with 2 samples.

Results

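The genes described here were 7 genes of MHC class I antigen presentation, taken by name: the heavy chain genes HLA-B, HLA-C and HLA-E, the light chain gene B2M, the peptide transporter gene TAP1, and TAPBP and CALR, which encode the chaperones tapasin and calreticulin. They were among the 10295 genes of MCF10A and 9344 genes of MDA-MB-468 that had at least 1 kept cytosine, that is, a cytosine read at least 10 times on an exon of the same strand. They held 2928 of the 1584002 kept cytosines of MCF10A and 2615 of the 1271253 of MDA-MB-468. All 7 were represented in both lines.

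The study measured RNA cytosine methylation (m5C) by RNA BS-Seq, in which bisulfite turns unmethylated cytosines into uracil, so that they are read as T, and leaves m5C to be read as C. Poly(A)+ RNA of 2 human cell lines was treated at 60 degrees for 8 hours: MCF10A, a normal mammary epithelial line, and MDA-MB-468, a breast cancer line. No drug, allele or time course was involved, and each line gave 1 library, so no value below has a replicate error. The comparison of the libraries asks whether the m5C sites of these transcripts differed between a normal and a cancer line, but line and library cannot be told apart.

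MHC class I molecules carry peptides from inside the cell to its surface, where CD8+ T cells inspect them. A polymorphic heavy chain (HLA-B, HLA-C) or a nearly invariant one (HLA-E, the ligand of NKG2A receptors on natural killer cells) pairs with beta-2-microglobulin in the endoplasmic reticulum. TAP1 is a subunit of the transporter that brings peptides there from the cytosol. Tapasin joins the empty heavy chain to that transporter, and calreticulin holds the glycosylated heavy chain while a peptide is loaded.

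The deposited tables held 3146911 cytosines with 76098976 counts in MCF10A and 3489803 cytosines with 90960018 counts in MDA-MB-468, none with a coverage under 5. The median coverage of the kept cytosines was 18 in both. Of the epithelial markers, KRT5, KRT8 and KRT18 were read in both lines, whereas EPCAM and CDH1 had 5 and 33 counts in MCF10A and 6112 and 3447 in MDA-MB-468, and KRT14 had 222 and 0. Of the immune cell markers, PTPRC, HLA-DRA, CD3E and LYZ had no deposited site in either line, and CD74 had 0 counts in MCF10A against 631 in MDA-MB-468. Of the fibroblast markers, COL1A2 and COL3A1 had none, and COL1A1 had 319 and 6276. RB1 had 491 and 0 counts.

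Transcripts of all 7 genes were abundant in both libraries. The level was expressed as counts per exonic cytosine per 1000000 nuclear exonic counts, which allows for the number of cytosines in each transcript. In MCF10A it ran from 0.191 for TAP1, through 0.358 for TAPBP, 0.552 for HLA-B, 0.652 for HLA-E, 1.18 for HLA-C and 1.47 for CALR, to 1.56 for B2M. In MDA-MB-468 the order was 0.312 for TAP1, 0.559 for TAPBP, 1.11 for HLA-C, 1.85 for HLA-E, 1.86 for B2M, 2.21 for HLA-B and 2.61 for CALR. The median protein-coding gene stood at 0.0624 and 0.0788, so each of the 7 lay above it. Neighbours in these orders, such as HLA-E and B2M in MDA-MB-468, cannot be separated with 1 library.

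The ratio of the level in MDA-MB-468 to that in MCF10A was 4.01 for HLA-B, 2.84 for HLA-E, 1.78 for CALR, 1.63 for TAP1, 1.56 for TAPBP, 1.19 for B2M and 0.941 for HLA-C. On the log2 scale these ratios ran from -0.09 to 2.002, beside a median of 0.03 and a 5th to 95th percentile range of -1.98 to 2.05 over 5220 protein-coding genes. HLA-B was thus close to the upper end of that range, and B2M and HLA-C were near its middle. The level is relative to the nuclear exonic counts of its library, so a difference in the amount of RNA per cell cannot be seen in it. HLA alleles also differ from the reference genome. Reads that do not align lower the level of HLA-B and HLA-C, and reads placed on the wrong one of these similar genes raise the other. In MDA-MB-468 exon 1 of both genes had no kept cytosine, against 27 of 37 for HLA-B and 25 of 37 for HLA-C in MCF10A. HLA-C exon 4 kept 21 of 87 cytosines in MDA-MB-468 against 82 in MCF10A. The part of lost or misplaced reads in these levels was not tested.

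**Figure D1:**
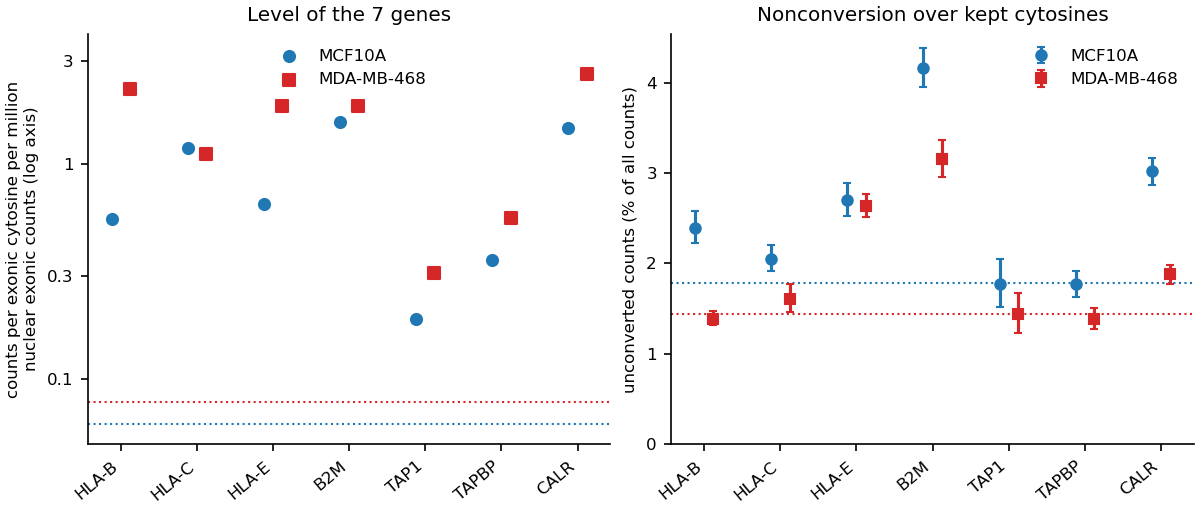
Left, level of each gene in counts per exonic cytosine per 1000000 nuclear exonic counts (log axis), 1 point per library; right, unconverted counts as a percentage of all counts over the kept cytosines of each gene, with 95% Wilson intervals. Dotted lines mark the median protein-coding gene of each line (left, 0.0624 and 0.0788; right, 1.79% and 1.45%), and B2M had the highest nonconversion in both lines, 4.16% and 3.15%.

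Nonconversion, the share of unconverted counts over all kept cytosines of a gene, contains both m5C and failed conversion. Over the 7 genes together it was 2.66% in MCF10A (95% Wilson interval 2.59 to 2.73) against 1.91% in MDA-MB-468 (1.86 to 1.96), beside 1.99% and 1.81% over all kept cytosines. These intervals cover counting error only and are too narrow, since a read covers several cytosines. Among the heavy chains, HLA-B had 2.40% (2.23 to 2.57) in MCF10A and 1.39% (1.31 to 1.47) in the cancer line, HLA-C had 2.05% (1.92 to 2.20) and 1.61% (1.46 to 1.77), and HLA-E had 2.70% (2.53 to 2.89) and 2.63% (2.51 to 2.76). Among the others, B2M had 4.16% (3.95 to 4.38) and 3.15% (2.95 to 3.36), TAP1 1.77% (1.52 to 2.05) and 1.44% (1.23 to 1.67), TAPBP 1.77% (1.63 to 1.92) and 1.39% (1.27 to 1.51), and CALR 3.02% (2.87 to 3.17) and 1.88% (1.78 to 1.99). All 7 genes were lower in MDA-MB-468 on this measure, with overlapping intervals for HLA-E and TAP1. The median protein-coding gene was lower there as well, at 1.79% and 1.45%. Over the 2442 cytosines kept in both lines the 7 genes had 2.73% and 1.92%.

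Each kept cytosine was tested by Fisher's exact test, one-sided, against the summed counts of all kept cytosines of its line, and those with a Benjamini-Hochberg adjusted p under 0.05 are called m5C sites here. In MCF10A 91 of the 2928 cytosines of the 7 genes were m5C sites, 3.11% (95% Wilson interval 2.54 to 3.80), where 0.96% of all kept cytosines were called. In MDA-MB-468 97 of 2615 were called, 3.71% (3.05 to 4.50), where 0.84% of all kept cytosines were. B2M alone held 51 and 37 of these sites, and without it 40 of 2770 (1.44%) and 60 of 2474 (2.43%) remained. The intervals take cytosines as independent and are too narrow, since neighbouring cytosines share reads. The kept cytosines of the 7 genes had a median coverage of 45 and 59 against 18 for all kept cytosines, and a cytosine with coverage 10 needed at least 4 unconverted counts to be called. The part of this higher coverage in the larger shares was not tested.

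All 7 genes had an m5C site in MCF10A and 6 of them in MDA-MB-468, where HLA-C had none. Over protein-coding genes with at least 20 kept cytosines, 25.4% and 20.9% had one. The 7 genes are unlike most of these, with 141 to 683 kept cytosines each and a level at the 82.8th percentile or higher. More cytosines and higher coverage make a call more likely, and their part was not tested. The sites lay close together. In each line 10 stretches of at least 3 m5C sites with gaps of at most 10 nt held 76 of the 91 sites (83.5%) of MCF10A and 80 of the 97 (82.5%) of MDA-MB-468. Neighbouring sites share reads and are not independent measurements.

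**Figure D2:**
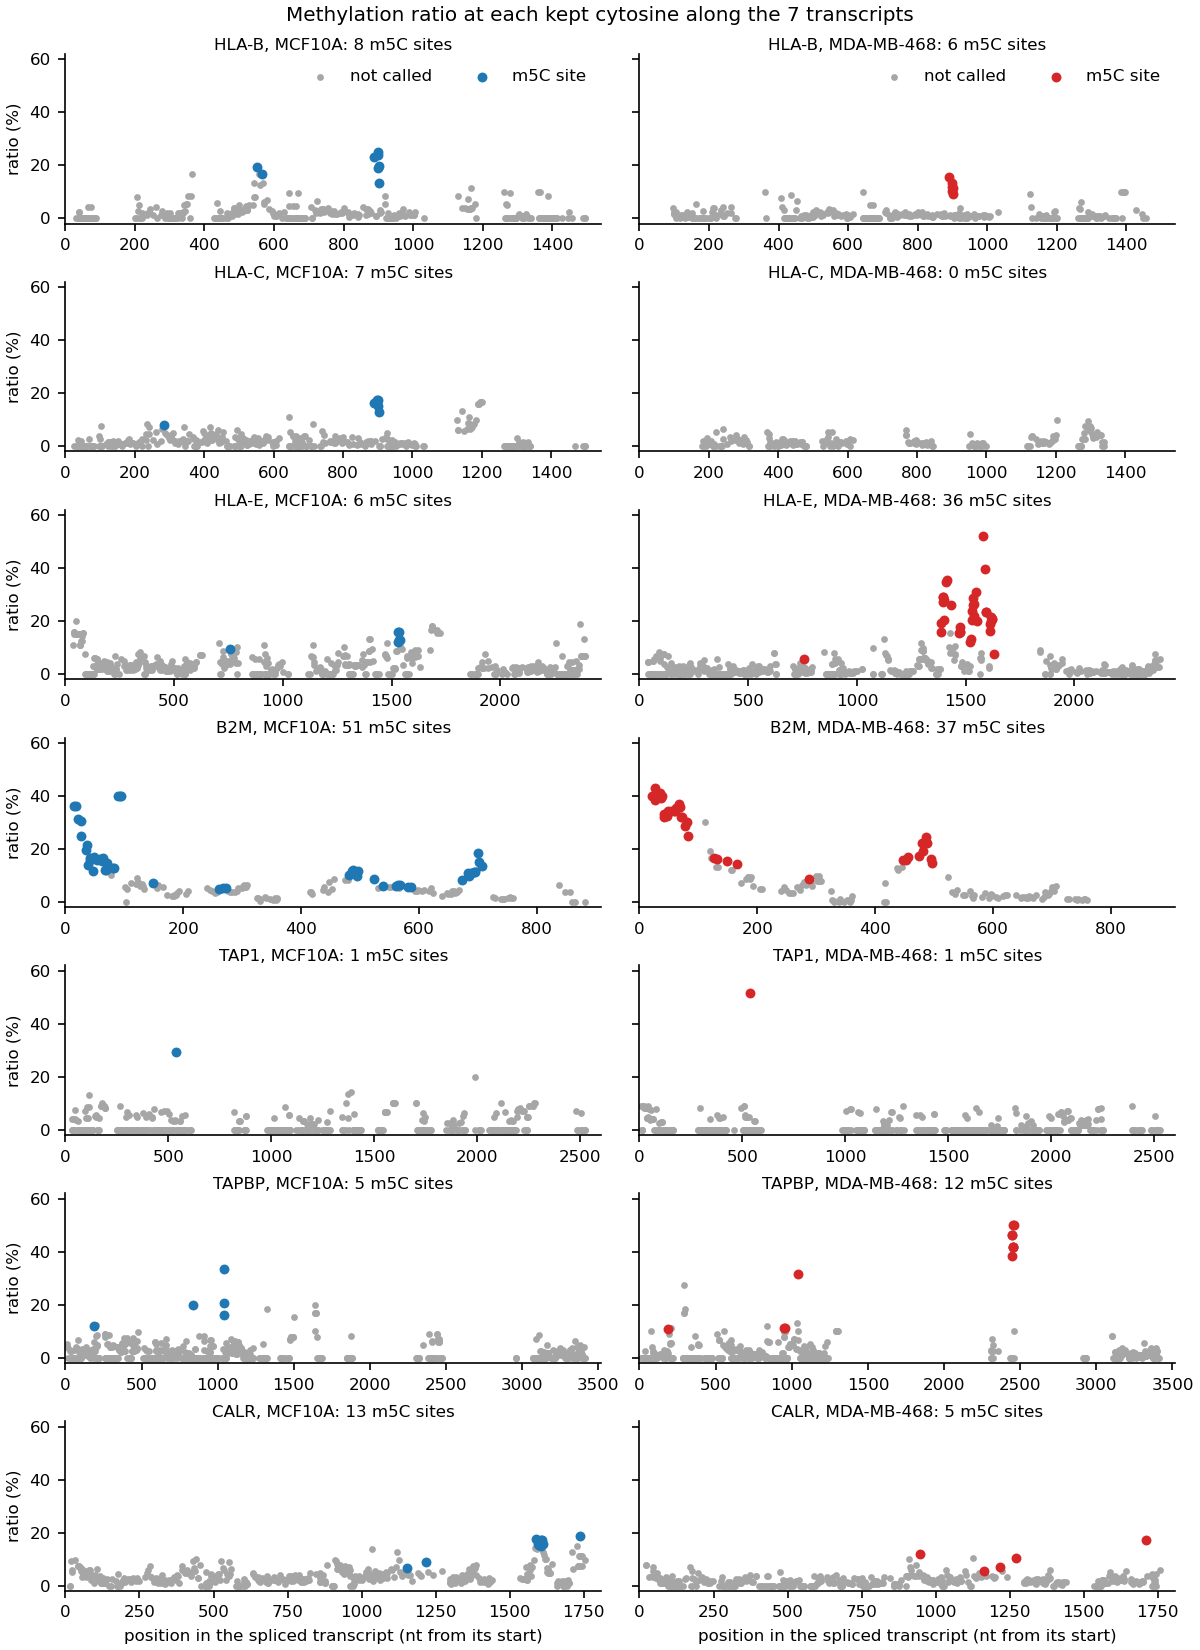
Methylation ratio (unconverted counts as a percentage of all counts) at each kept cytosine of the 7 genes against its position in the spliced transcript in nt, with MCF10A on the left and MDA-MB-468 on the right; colored points are m5C sites and grey points are not called. Sites gather in 1 short stretch in HLA-B, at the start of B2M and, in MDA-MB-468, in the 3′UTR of HLA-E, whereas TAP1 has a single site of 29.4% and 51.6%.

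The heavy chain genes HLA-B and HLA-C (GRCh37, minus strand, chr6:31321652-31324956 and chr6:31236526-31239869) shared a stretch of m5C sites in exon 4, part of the coding sequence. The stretch of HLA-B covered chr6:31323107-31323121 and that of HLA-C chr6:31238000-31238014. The windows around them, and the aligned window of HLA-E on the plus strand, are printed 5′ to 3′ because the sites fall at the same places in HLA-B and HLA-C. The alleles of the lines may differ from these reference letters, and a reference C that is T in an allele is read as converted. Capitals mark m5C sites called in at least 1 line.
HLA-B exon 4, chr6:31323104-31323124: gggCtgccgaagCCCCtCacc
HLA-C exon 4, chr6:31237997-31238017: gggCtgcaagagCCCCtCacc
HLA-E exon 4, chr6:30459159-30459179: gggctacccgagcccgtcacc

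In HLA-B all 6 marked cytosines were m5C sites in both lines. In MCF10A their methylation ratios ran from 13.4% to 25.0% at coverages of 97 to 138, with 132 of 632 counts unconverted (20.9%). In MDA-MB-468 they ran from 9.02% to 15.5% at coverages of 244 to 330, with 191 of 1575 counts unconverted (12.1%). The adjusted p of Fisher's exact test was between 9.83e-22 and 1.57e-05 in MCF10A and between 4.53e-28 and 3.31e-07 in MDA-MB-468. Each of the 6 sites was higher in MCF10A, and none of them differed between the libraries at an adjusted p under 0.05. All 6 were predicted to be base-paired, and bisulfite converts paired cytosines poorly; the part of structure in these ratios was not tested. The only other m5C sites of HLA-B were chr6:31324018 (5 of 30 counts, 16.7%) and chr6:31324033 (6 of 31, 19.4%) in exon 3, both in MCF10A, where MDA-MB-468 had 1.93% and 2.57%, and they differed between the libraries only under the alternatives given below.

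The HLA-C stretch repeated this pattern in MCF10A, where 6 sites had ratios of 13.04% to 17.4% at coverages of 92 to 110, and all 6 were predicted to be paired. The seventh m5C site of HLA-C in MCF10A was chr6:31239456 in exon 2, with 10 of 127 counts (7.87%, adjusted p = 0.0279 by Fisher's exact test). In MDA-MB-468 HLA-C had 201 kept cytosines against 368 in MCF10A, and none of the 6 stretch cytosines was kept. Of the 87 cytosines of exon 4, 24.1% were kept in MDA-MB-468 and 94.3% in MCF10A, which leaves the stretch unmeasured there. Over what was kept, 0 of 201 cytosines were called. With cytosines taken as independent, which they are not, this allows a share of up to 1.88% (95% Wilson limit). The highest ratio at a coverage of at least 20 was 4 of 42 counts (9.52%) at chr6:31236776 in the 3′UTR (adjusted p = 0.479 by Fisher's exact test).

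In HLA-E the aligned window was read thinly. Its 5 aligned cytosines had coverages of 18 in MCF10A, with ratios of 0% to 5.56%, and of 25 to 30 in MDA-MB-468, with ratios of 0% to 8.00%, and none was called. HLA-F, a heavy chain gene outside the 7, had ratios of 6.38% to 10.9% at the 6 aligned positions in MDA-MB-468, at coverages of 43 to 58, none called. The transcripts are alike: HLA-C was identical to HLA-B at 92.8% of aligned bases, HLA-F at 84.7% and HLA-E at 84.4%. After conversion of every C, 12.4% of the 50-nt windows of HLA-B and 14.5% of those of HLA-C also occurred in transcripts of another gene, and none of the 64 windows touching either stretch did. These were exact matches of the reference sequence, so reads of alleles that differ from it were not covered.

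**Figure D3:**
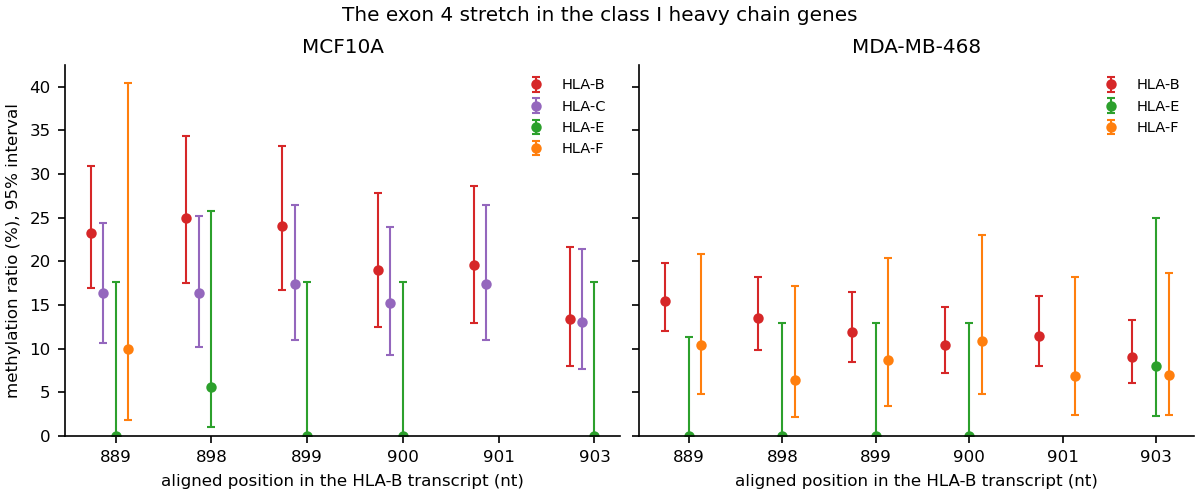
Methylation ratio (%) at the 6 aligned exon 4 positions, numbered in nt from the start of the HLA-B transcript (889, 898 to 901 and 903), for HLA-B, HLA-C, HLA-E and HLA-F in MCF10A (left) and MDA-MB-468 (right); bars are 95% Wilson intervals. HLA-B and HLA-C lie between 13.04% and 25.0% in MCF10A, and HLA-C has no kept cytosine there in MDA-MB-468.

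HLA-E (plus strand, chr6:30457286-30461971) had 6 m5C sites in MCF10A against 36 in MDA-MB-468, and its sites lay mostly in the 3′UTR, in exon 8. With its own kept cytosines as the background it had 3 and 34. In the 3′UTR 5 of 271 kept cytosines were called in MCF10A against 35 of 271 in MDA-MB-468. All of them lay within 243 nt, chr6:30460810-30461052. In these 243 nt 116 of 1714 counts were unconverted in MCF10A (6.77%, 95% Wilson interval 5.67 to 8.06) and 926 of 5714 in the cancer line (16.2%, 15.3 to 17.2). In the rest of the 3′UTR the shares were 1.87% (1.65 to 2.12) and 1.22% (1.10 to 1.35). Because the 243 nt were bounded by stretches called in MDA-MB-468, these shares are a description and the contrast between inside and outside is partly fixed by that choice.

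In MDA-MB-468 the 243 nt held 5 stretches. Their ratios ran from 15.8% to 35.3% over 9 sites at chr6:30460810-30460836, from 15.6% to 17.6% over 4 sites at chr6:30460894-30460897, from 12.05% to 30.8% over 10 sites at chr6:30460945-30460976, from 23.6% to 52.2% over 4 sites at chr6:30461002-30461019 and from 7.58% to 21.3% over 7 sites at chr6:30461035-30461052. MCF10A had a single stretch of 5 sites, chr6:30460953-30460961, with ratios of 12% to 16% at coverages of 47 to 50. Those 5 sites were called in MDA-MB-468 too, at 20.2% to 28.6%. All 34 stretch sites of MDA-MB-468 were kept in MCF10A and all were lower there, at coverages of 12 to 50, where fewer counts were available to call a site.

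When the test was adjusted over all cytosines kept in both lines, 1 cytosine of the 7 genes differed between the libraries, chr6:30461011 in this region. It is printed with its flanks, with capitals for the m5C sites of MDA-MB-468.
HLA-E exon 8, chr6:30461001-30461021: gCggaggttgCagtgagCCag

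At chr6:30461011, the second capital, 4 of 49 counts were unconverted in MCF10A (8.16%) against 56 of 142 in MDA-MB-468 (39.4%), a difference of 31.3 percentage points (adjusted p = 0.0318, two-sided Fisher's exact test over all 812729 cytosines kept in both lines). The first capital, chr6:30461002, had the highest ratio of any m5C site of the 7 genes, 12 of 23 counts (52.2%), and 0 of 12 in MCF10A, and it did not pass that test. Such a test compares 2 libraries, not normal and cancer cells. The 21 printed letters also occur in transcripts of 8 other genes, and of 19 after conversion, but none of the 67 converted 50-nt windows touching this stretch did. That check covers exact matches in annotated transcripts only, so near copies and other genomic sequence were not examined. The origin of the reads at this stretch was not tested. For the stretch at chr6:30460894-30460897 the share was 75.5% of 53 windows, found in transcripts of 33 other genes, so the origin of its reads is less certain.

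In the coding sequence of HLA-E the only m5C site was chr6:30459035 in exon 4, in both lines, with 10 of 107 counts (9.35%) and 16 of 288 (5.56%). Nonconversion of the HLA-E coding sequence was 2.97% in MCF10A against 1.30% in MDA-MB-468. Exon 1 stood out in MCF10A, with 14.4% of 382 counts unconverted and no m5C site, against 1.69% of 413 counts in MDA-MB-468.

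B2M (plus strand, chr15:45003715-45010343) encodes the light chain that all class I heavy chains share. It had 51 m5C sites among 158 kept cytosines in MCF10A and 37 among 141 in MDA-MB-468. Exon 1 holds the start of the coding sequence, and nearly all of its kept cytosines were m5C sites. A window of 30 nt near the start of the coding sequence is printed, with capitals for the m5C sites of at least 1 line.
B2M exon 1, chr15:45003749-45003778: CtCgCtCCgtggCCttagCtgtgCtCgCgC

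Every cytosine in these 30 nt was an m5C site, and the pattern went on through the exon. In MCF10A 26 of the 27 kept cytosines of exon 1 were called, with ratios of 11.7% to 40%, a median of 16.3% and coverages of 10 to 82. In MDA-MB-468 22 of 22 were called, with ratios of 25.0% to 42.9%, a median of 34.4% and coverages of 10 to 32. Of the 22, 21 were called in both lines, and all 22 were higher in MDA-MB-468, none at an adjusted p under 0.05 between the libraries. Since a cytosine with coverage 20 needed 5 unconverted counts in MCF10A and 4 in the cancer line to be called, a called site at low coverage could not have a low ratio.

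The unconverted counts of B2M changed little along the transcript while its coverage changed much. In MCF10A the median number of unconverted counts per cytosine was 9 in exon 1, 7 in exon 2 and 10 in exon 4, where the median coverage was 59, 250 and 215. In MDA-MB-468 it was 9, 5 and 7, where the median coverage was 26, 83 and 184. The ratios were therefore highest where coverage was lowest. Over the kept cytosines the coefficient of variation was 0.919 for coverage and 0.524 for unconverted counts in MCF10A, and 1.54 and 0.530 in MDA-MB-468. Spearman's rho between unconverted counts and coverage was 0.531 over 158 cytosines and 0.0786 over 141, a description only, since cytosines on the same reads are not independent. Called cytosines had a median coverage of 78 and 31 and a median of 10 and 9 unconverted counts, whereas those not called had a median coverage of 246 and 121 and 8 and 5 unconverted counts.

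When each gene's own kept cytosines were taken as the background, B2M had 20 m5C sites in MCF10A in place of 51 and 34 in MDA-MB-468 in place of 37. On the opposite strand of the B2M exons, which no count above includes, 45 cytosines with coverages of at least 10 had 515 of 527 counts unconverted (97.7%) in MCF10A and 11 had 124 of 124 in MDA-MB-468. They lay at chr15:45007740-45010183 and chr15:45007722-45010271, downstream of exon 1, and their part in the unconverted counts of B2M was not tested. Further stretches of B2M lay in the 3′UTR. That at chr15:45009882-45009897 was called in both lines, with 51 of 462 counts (11.04%) over 5 sites in MCF10A against 44 of 228 (19.3%) in MDA-MB-468. That at chr15:45010074-45010108 was called in MCF10A only, at 8.39% to 18.6% over 9 sites, and the same cytosines had 1.09% to 6.06% in MDA-MB-468. Its cytosine chr15:45010084 had 13 of 118 counts (11.02%) and 2 of 184 (1.09%), with an adjusted p of 0.143 between the libraries by Fisher's exact test, and of 0.00222 when only cytosines called in at least 1 line were tested.

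**Figure D4:**
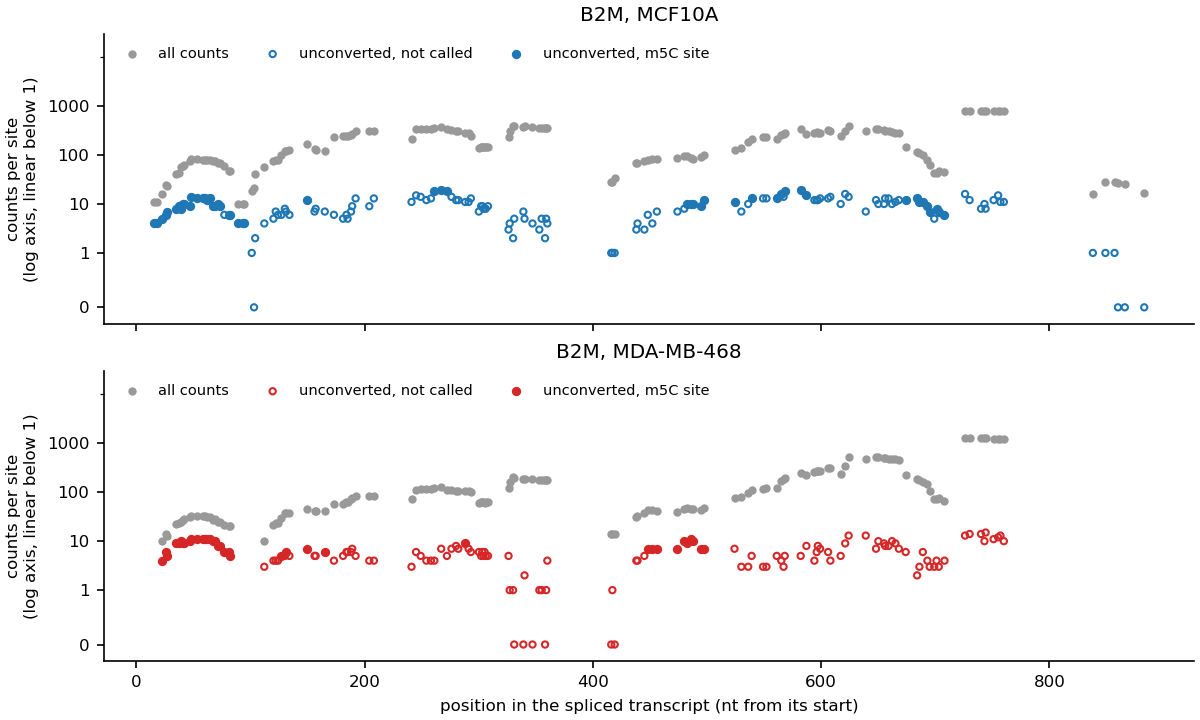
All counts (grey) and unconverted counts (colored; filled for m5C sites, open for cytosines not called) at each kept cytosine of B2M against its position in the spliced transcript in nt, MCF10A above and MDA-MB-468 below; the vertical axis is logarithmic and linear below 1. Unconverted counts range from 0 to 19 and from 0 to 15, whereas all counts range from 10 to 801 and from 10 to 1256.

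TAP1 (minus strand, chr6:32812986-32821481) was the opposite case, with 1 m5C site in each line. It was the same cytosine, chr6:32820943, in the coding part of exon 1 and followed by G. It is printed in capitals.
TAP1 exon 1, chr6:32820933-32820953: ggcacaaactCgggagcctct

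At this cytosine 10 of 34 counts were unconverted in MCF10A, 29.4% (95% Wilson interval 16.8 to 46.2, adjusted p = 2.16e-07 by Fisher's exact test). In MDA-MB-468 16 of 31 were, 51.6% (34.8 to 68.0, adjusted p = 2.37e-17 by Fisher's exact test). The intervals overlap, and the libraries did not differ there at an adjusted p under 0.05. The site stood alone. Its 13 kept neighbours within 20 nt had 1.23% of 406 counts unconverted in MCF10A against 1.16% of 345 in MDA-MB-468, and none was called. It was not predicted to be paired, and none of the converted 50-nt windows across it occurred in a transcript of another gene. The rest of TAP1 was read shallowly, at a median coverage of 19 and 21.

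TAPBP (minus strand, chr6:33267471-33281855) had 5 m5C sites in MCF10A and 12 in the cancer line, of which 2 were called in both lines. These are chr6:33281527 in exon 2, which is 5′UTR in some of its transcripts and coding sequence in others, and chr6:33272277 in exon 5, in the coding sequence. In both, the cytosine is the first C of CNGGG. Capitals mark the m5C sites of either line.
TAPBP exon 2, chr6:33281517-33281537: cgccagggacCgggggaaccg
TAPBP exon 5, chr6:33272267-33272287: cggggtggCCCagggggccgc

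At chr6:33281527 12 of 99 counts (12.1%) were unconverted in MCF10A against 11 of 102 (10.8%) in MDA-MB-468, with adjusted p of 0.00013 and 0.00051 by Fisher's exact test. Its kept neighbours within 20 nt had 2.67% and 1.67%. At chr6:33272277, the last capital of exon 5, 12 of 36 counts (33.3%) and 11 of 35 (31.4%) were unconverted. Both TAPBP sites thus had nearly the same ratio in the 2 lines. The cytosines beside the exon 5 site, chr6:33272278 and chr6:33272279, were called in MCF10A only, so that the 3 formed a stretch with 23 of 96 counts unconverted (23.96%) against 16 of 95 in MDA-MB-468 (16.8%), and all 3 were predicted to be paired.

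The other TAPBP sites were called in 1 line. In MDA-MB-468 a stretch of 8 sites in the 3′UTR, chr6:33268465-33268475, had ratios of 38.5% to 50% at coverages of 10 to 13, with 42 of 95 counts unconverted. The same cytosines had 8 of 124 counts unconverted in MCF10A, at ratios of 5.88% to 7.14% and coverages of 14 to 17. None of the 8 differed between the libraries at an adjusted p under 0.05, and with a coverage minimum of 20 they could not be tested and TAPBP kept 4 sites in MDA-MB-468. Exon 4 gave chr6:33272833 in MCF10A (5 of 25 counts, 20%, against 2 of 17 in MDA-MB-468). Exon 5 gave chr6:33272367 and chr6:33272373 in MDA-MB-468 (11.1% and 11.3%, against 4.35% and 6.82% in MCF10A).

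CALR (plus strand, chr19:13049423-13055303) had 13 m5C sites in MCF10A against 5 in MDA-MB-468 at a median coverage of 105.5 and 105, and 1 was called in both. With its own kept cytosines as the background CALR had 4 and 8, so the line with more sites depended on the background. The cytosine called in both, chr19:13054618, lies in the coding part of exon 9, in a purine-rich stretch, and is printed as the capital.
CALR exon 9, chr19:13054608-13054628: gaggaggaggCagaggacaag

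It had 13 of 149 counts unconverted in MCF10A (8.72%) and 17 of 239 in the cancer line (7.11%). Its kept neighbours within 20 nt had 4.14% and 3.65%. In MCF10A 10 of the other sites formed a stretch in the 3′UTR, chr19:13054990-13055014, with ratios of 15% to 17.6% at coverages of 34 to 41. The same 10 cytosines had 1.87% to 5.00% in MDA-MB-468 at coverages of 87 to 107, and none of them was called. Over the stretch 62 of 388 counts were unconverted in MCF10A against 28 of 1022 in MDA-MB-468 (15.98% and 2.74%), and no single cytosine of it differed between the libraries when adjusted over all cytosines kept in both lines. When only cytosines called in at least 1 line were tested, chr19:13054999, chr19:13055002, chr19:13055009 and chr19:13055012 differed, with adjusted p of 0.0179 to 0.0382 by Fisher's exact test.

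In MDA-MB-468 the highest CALR site was chr19:13055112 in the 3′UTR, with 15 of 88 counts (17.0%) against 3 of 24 (12.5%) in MCF10A, where it was not called. The next were chr19:13051616 in exon 7, with 8 of 68 counts (11.8%) against 3 of 63, and chr19:13054673 in exon 9, with 19 of 180 (10.6%) against 8 of 142. At chr19:13055140 MCF10A had 5 of 27 counts (18.5%) and MDA-MB-468 1 of 96 (1.04%).

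Between the lines, 43 cytosines of the 7 genes were m5C sites in both, 47.3% of the 91 sites of MCF10A and 44.3% of the 97 of MDA-MB-468. For cytosines kept in both lines over all genes the same count was 5043, 33.2% of all MCF10A sites and 47.2% of all MDA-MB-468 sites. The 43 comprised 27 sites of B2M, 6 each of HLA-B and HLA-E, 2 of TAPBP and 1 each of TAP1 and CALR. Of the 27 B2M sites, 27 were higher in MDA-MB-468, with medians of 14.5% in MCF10A against 34.4% in MDA-MB-468. The 6 HLA-B sites were all higher in MCF10A, with medians of 21.4% and 11.6%. Of the 6 HLA-E sites, 5 were higher in MDA-MB-468, with medians of 12.8% and 25.0%. Within this list the direction differed between genes, and sites of 1 gene share reads. Sites chosen by their calls must have a higher ratio at lower coverage. In MCF10A and MDA-MB-468, B2M exon 1 had a median coverage of 59 and 26, and the HLA-B sites had 97 to 138 and 244 to 330. The 5 HLA-E sites went the other way, at 47 to 50 and 183 to 191. Over all its kept cytosines B2M was lower in MDA-MB-468, at 4.16% and 3.15%. The part of coverage in these directions was not tested.

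Of the 2442 cytosines kept in both lines, 1 differed between the libraries after adjustment, the HLA-E cytosine above, and it was higher in MDA-MB-468, as were 0.0202% of all tested cytosines. In this test none was lower there, where 0.0691% of all tested cytosines were lower and 0.0893% differed in either direction. This count depended on the test. A chi-square test called 6 cytosines, 4 of HLA-B and 1 of HLA-E lower in MDA-MB-468 and the same HLA-E cytosine higher. The chi-square approximation is poor at low counts. The 4 HLA-B cytosines had 2 to 6 unconverted counts in MCF10A and 3 to 11 in MDA-MB-468. None of the 5 lower cytosines passed Fisher's exact test over the same cytosines. Fisher's exact test over only the cytosines called in at least 1 line, a selection that uses the same counts, called 13, of which 9 were lower in MDA-MB-468 (5 of CALR, 2 of B2M and 2 of HLA-B) and 4 of HLA-E were higher. At an unadjusted p under 0.05 by Fisher's exact test the 7 genes had 134 cytosines, 101 lower and 33 higher in MDA-MB-468. The lower ones comprised 30 in CALR, 23 in HLA-B, 19 in HLA-E, 14 in HLA-C, 12 in B2M and 3 in TAPBP, and the higher ones 15 in B2M, 11 in HLA-E, 4 in TAPBP, 2 in CALR and 1 in HLA-C. TAP1 had none. Over all genes 1.14% of the cytosines tested had such a p. The 2 shares are not alike, since the kept cytosines of the 7 genes had a median coverage of 45 and 59 against 18. A p under 0.05 is harder to reach at low coverage. The split by direction over all genes was not counted, and cytosines at an unadjusted p are not calls.

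**Figure D5:**
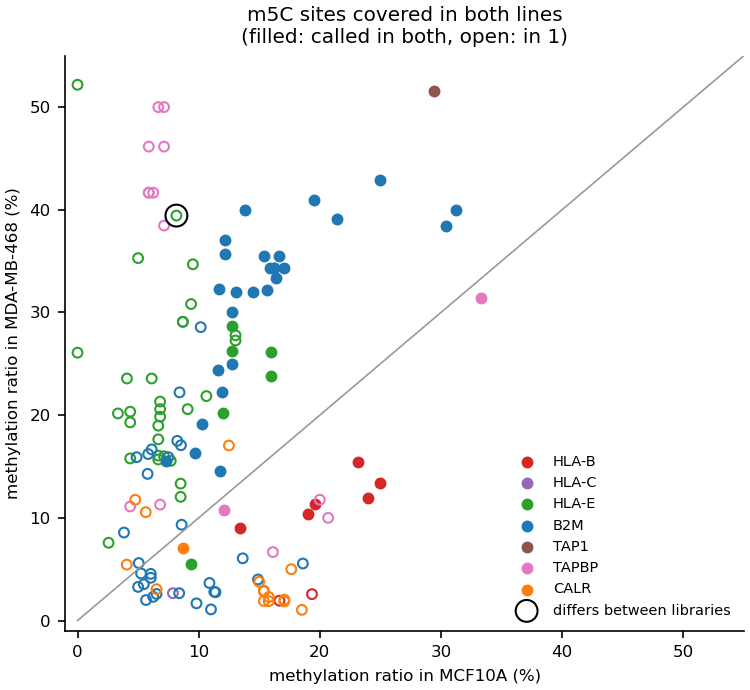
Methylation ratio (%) in MDA-MB-468 against that in MCF10A for the 134 m5C sites of the 7 genes that were kept in both lines, colored by gene, filled for the 43 called in both and open for the 91 called in 1; the line marks equal ratios. B2M and HLA-E sites lie mostly above the line and HLA-B sites below it, and the circled HLA-E cytosine is the one that differed between the libraries when adjusted over all cytosines kept in both lines.

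By transcript region, the m5C sites of the 7 genes comprised 6 in 5′UTRs, 48 in coding sequences and 37 in 3′UTRs in MCF10A, out of 200, 1943 and 785 kept cytosines. In MDA-MB-468 they comprised 4, 39 and 54, out of 192, 1725 and 698. The share of m5C sites in a 5′UTR was 6.59% (95% Wilson interval 3.06 to 13.6) and 4.12% (1.62 to 10.1). These intervals are too narrow, since neighbouring sites share reads. Over all genes 29.8% and 25.3% of the m5C sites in these regions lay in a 5′UTR, as did 11.3% and 9.47% of the kept cytosines. All but 1 of the 5′UTR sites in each line were B2M cytosines, where 5 of 5 and 3 of 3 kept 5′UTR cytosines were called, and the exception was the TAPBP exon 2 site. HLA-B, HLA-C and HLA-E had no kept cytosine in a 5′UTR. Over all genes 2.24% and 1.95% of kept 5′UTR cytosines were called, 0.615% and 0.551% of those in coding sequences and 0.837% and 0.739% of those in 3′UTRs.

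Of the m5C sites, 23 of 91 and 24 of 97 were predicted to be paired in at least 1 transcript, where 13.8% and 13.5% of the kept cytosines of the 7 genes were. These were mainly the exon 4 stretches of HLA-B and HLA-C and the 3′UTR of HLA-E. The cytosines in CTCCA (the first C or the C before A) and in CNGGG (the first C), both read on the transcript strand only, were few. In MCF10A 2 of 42 CTCCA and 2 of 80 CNGGG cytosines of the 7 genes were called, and in MDA-MB-468 2 of 36 and 5 of 72. The remaining C of CTCCA, after T, was called at 0 of 21 and 1 of 18. Over all genes 0.603% and 0.497% of CTCCA cytosines (the first C or the C before A) and 2.20% and 1.84% of CNGGG cytosines were called. Of the kept cytosines of the 7 genes, 1.43% were such CTCCA and 2.73% CNGGG cytosines in MCF10A, and 1.38% and 2.75% in MDA-MB-468. With so few of them, that most m5C sites lay in neither motif says little about the motifs.

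Another 15 genes of the pathway were counted in the same way, from HLA-F and HLA-G through the peptide-trimming enzymes and immunoproteasome subunits to the regulators NLRC5 and IRF1. In MCF10A 12 of the 15 had a kept cytosine and 2 had an m5C site, with 27 of 1873 cytosines called (1.44%). In MDA-MB-468 13 had a kept cytosine and 3 an m5C site, with 8 of 2456 called (0.326%). Over all kept cytosines 0.96% and 0.84% were called. Of protein-coding genes with at least 20 kept cytosines, a minimum not set for this list, 25.4% and 20.9% had an m5C site. Most of the sites of the list were in CANX, which encodes the chaperone calnexin (22 and 4). The others were 5 sites of PSME2, a proteasome activator subunit, in MCF10A, and 3 of TAP2, the partner of TAP1, and 1 of HLA-F in MDA-MB-468. Nonconversion pooled over these genes was 2.58% and 1.64%, beside 1.99% and 1.81% over all kept cytosines. Single genes went both ways. CANX and PDIA3 were higher in the cancer line, at 2.99% against 2.59% and 3.48% against 1.88%. Every other listed gene with kept cytosines in both lines was lower there. The weight of each gene in the pooled value also changed, with 4661 kept counts of HLA-F in MCF10A against 30233 in MDA-MB-468. The part of this change in the pooled value was not tested.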

How the data were processed

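RNA BS-Seq was analysed for MCF10A and MDA-MB-468, with 1 library each. Per the labels the authors trimmed reads with Trim Galore and used Bismark and hg19, whereas the methods of the study name MeRanTK for alignment and calling. The deposited tables list, per cytosine, raw counts of reads with C and of reads with T, with no p-values. Their lowest coverage was 5, and filters applied before counting cannot be seen in them. The methods of the study describe limits on base quality and read duplication and leave out biased read ends. The 7 genes, the pathway list and the markers were chosen with earlier results of these data known.

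Cytosines with a coverage of at least 10 on same-strand exons of GENCODE release 44 basic transcripts (GRCh37) were kept, as were mitochondrial ones. All kept cytosines of the 7 genes fell on a reference C and on no exon of another gene. Fisher's exact test was used one-sided to set each cytosine against the summed counts of its line and two-sided between the libraries, with Benjamini-Hochberg adjustment at 0.05 over the whole table. A site in several regions counted as 5′UTR before coding sequence before 3′UTR. Transcripts of the 7 genes were folded with RNAfold 2.7.2 (maximum expected accuracy, gamma 0.1, 70 degrees, pairing distance up to 150 nt). The methods drop paired sites, but this filter was run here only on the 7 genes, as an alternative, since the other transcripts were not folded. Named sites were, per gene and line, up to 3 m5C sites with the highest ratio at a coverage of at least 20, stretches and sites that differed between the libraries; sites called in both lines, the other m5C sites of HLA-B, HLA-C and HLA-E exon 4, and the B2M cytosine without a call between the libraries were chosen after their values were seen. Sequences were read from GRCh37. The code was tested on simulated data and ran on Python 3.11.15 with NumPy 2.4.6, pandas 2.3.3, SciPy 1.17.1, numba 0.67.0 and matplotlib 3.10.9. An item of the pathway list is not reported here.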

Additional observations from a re-analysis of the deposited data

Results flagged for a closer look

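The report used the strand of each gene, and 3 signals came from cytosines of the opposite strand under member exons, with coverages of at least 10. In MCF10A 6 cytosines opposite HLA-B, chr6:31321724-31321765, had 67 of 70 counts unconverted (95.7%), and 45 opposite B2M, chr15:45007740-45010183, had 515 of 527 (97.7%) at a median coverage of 11. In MDA-MB-468 11 cytosines opposite B2M, chr15:45007722-45010271, had 124 of 124 counts unconverted (100%). All of them passed the test for m5C sites against the kept cytosines of their line, and neither HLA-B in MDA-MB-468 nor the other members in either line had such a cytosine. Where these counts came from was not tested.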

How the results depend on the processing

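Of 54 alternative values, 37 stayed within the limits set for them, 17 moved and 0 reversed. The number of m5C sites (91 in MCF10A, 97 in MDA-MB-468) stayed between 68 and 95 and between 73 and 102 under other backgrounds, an exact binomial test, coverage minimums of 5 and 20, canonical transcripts, and without paired cytosines, HLA exons 2 and 3 or shared exons, but for these. A methylation ratio of at least 0.2 as a further condition left 16 and 58. The next alternatives were chosen after seeing the data: each member's own cytosines as the background gave 48 in MCF10A, and leaving out B2M gave 40 and 60. Nonconversion was 2.58% and 1.77% without paired cytosines, 2.75% and 2.02% without HLA exons 2 and 3, 2.96% and 2.65% as a mean of site ratios, and 2.40% and 1.79% without B2M. The share of m5C sites in 5′UTRs was 2.5% in MCF10A without B2M and 1.06% in MDA-MB-468 at a coverage of 20, where low-coverage B2M cytosines drop out. Between the libraries, 6 cytosines differed with a chi-square test (5 lower in MDA-MB-468) and 13 (9 lower) when only cytosines called in at least 1 line were tested, which adjusts over 12052 cytosines in place of 812729. The chi-square approximation is poor at the low unconverted counts of the cytosines it added. Of the named sites, HLA-E chr6:30460958 in MCF10A lost its call with all deposited sites as the background (adjusted p of Fisher's exact test 0.0501), at a coverage minimum of 5 (0.0562) and with its own gene as the background (0.0790), and CALR chr19:13055140 in MCF10A with its own gene (0.0600). The cause of these moves was not tested, except where the alternative itself removes cytosines. No paired analysis was possible because each line has 1 library, and for the same reason no replicate could be left out. HLA alleles of the lines are unknown, and a C in the reference that is T in an allele is read as converted.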

Other observations

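In MDA-MB-468 some introns of the members were covered, on the same strand as the gene. HLA-B had 31 intronic cytosines with a coverage of at least 10 and 2.55% of 432 counts unconverted, HLA-E had 36 with 1.10% of 637, and CALR had 71 with 1.73% of 985, and none was called. MCF10A had no intronic cytosine of the members at that coverage.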
